A study of Mus musculus with 24 samples.

Results

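The genes described here were the collagen chains, the polypeptides from which the collagen triple helices of skin are built. They were chosen by name: every gene whose symbol reads Col, a number, a, and a number (Col1a1 and so on) was taken, whatever its values. This gave 42 chains of 18193 measured genes, each represented by its probe set with the highest mean over all arrays. Of the 44 symbols of this form in the RefSeq gene table, Col6a6 and Col28a1 were not measured here. The chains were sorted by molecule into 11 fibrillar chains, 6 basement membrane chains of type IV and 25 chains of other types. They came from 82 probe sets, and 27 chains had more than 1.

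Expression was measured on 24 Affymetrix arrays of back skin, 4 in each of 6 groups. All mice, controls included, were female and RAG2-/-, so they lack T and B cells of their own but keep their other leukocytes. Syngeneic mice were grafted with Balb/c splenocytes. GVH-SSc mice, a model of scleroderma driven by graft-versus-host disease, were grafted with B10.D2 splenocytes and received either an isotype antibody or an antibody to IFNAR1, through which cells sense type I interferons. Skin of each of these groups was taken at day 14 and at day 28. No antibody is named for the syngeneic mice, so a graft difference and an antibody injection cannot be told apart in isotype against syngeneic skin. Whether each array stands for its own animal is not stated, so p-values measure only how arrays vary, and that variation may be technical.

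Collagens are the main structural proteins of the dermis, and scleroderma is defined by their excess in skin. Fibrillar collagens (types I, III and V) form the banded fibrils that bear load, with type I made from Col1a1 and Col1a2 and type V setting fibril diameter. Type IV chains form the sheet under epithelia and around vessels, fat cells, muscle fibres and nerves. The other types tie these structures together: type VI microfilaments surround cells, type VII anchors the epidermis, FACIT chains (fibril-associated collagens with interrupted helices) coat fibrils, and the multiplexins Col15a1 and Col18a1 sit in or beside basement membranes.

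Values are the deposited probe set signals, given below as log2(intensity + 16), and each change is a difference on that scale with its standard error from limma (n = 4 arrays a group). A chain was called changed where the adjusted p (limma with Benjamini-Hochberg adjustment over all 18193 genes) lay under 0.05. Probe sets differ in brightness, so no chain's level is set against another's. Array medians ran from 14.8 to 17.7 in intensity. A sign of RNA quality, the log2 ratio of the 3' to the 5' Gapdh control probe sets, averaged 1.34 in isotype and 3.35 in anti-IFNAR1 skin at day 14, and reached 6.36 on syngeneic day 14 array 4. The mean of 9 hair follicle genes ran from 7.70 to 12.38 in syngeneic, from 5.31 to 9.06 in isotype and from 5.27 to 13.80 in anti-IFNAR1 skin at day 28, so the arrays of a group differed in hair growth genes. Leaving out the 5 arrays with the highest Gapdh ratio, or the 5 with the highest hair follicle mean, is reported beside the counts it changes.

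Of the 42 chains, 25 had a mean intensity of at least 50 over the 24 arrays (7 fibrillar, 4 type IV and 14 other), as had 59.0% of all genes. The 17 dimmer chains included 16 with a mean below 16, near the background of these arrays, among them the cartilage chains Col2a1, Col9a1, Col9a2, Col10a1 and Col11a2. The type IV chains Col4a3 and Col4a6 were also at that level, from 4.42 to 4.63 and from 4.44 to 4.51 in log2(intensity + 16) on all arrays. So were Col6a4, Col6a5, Col9a3, Col13a1, Col19a1, Col22a1, Col24a1, Col25a1 and Col26a1, which stayed between 4.43 and 5.38 on every array. The nearest chains to the limit of 50 were Col20a1 inside it, at 62.3, and Col11a1 outside it, at 29.9. Col20a1, a FACIT chain, ran from 5.68 to 6.91 and gave no call. None of the dimmer chains was called in any of the 11 comparisons by limma, though Col11a1, Col13a1 and Col24a1 were called under some alternatives. The skin arrays were bright for Col1a1 and Col3a1, the chains that mark dermis, with mean intensities of 4169 and 23334, and none of 6 keratinocyte genes lay below 16 in any group.

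In isotype GVH-SSc skin the collagen chains that were called against syngeneic skin of the same day all fell. At day 14, 2 of 42 chains fell and 0 rose against syngeneic skin: Col6a2 and Col16a1. That is 4.76% of the chains, below the 8.30% of all genes that fell, while 5.29% of all genes rose. Of the 25 brighter chains 8% fell, against 12.4% of all genes with a mean of at least 50. At day 28, 6 chains fell and 0 rose: Col15a1, Col8a2, Col4a4, Col23a1, Col4a5 and Col5a3. These are 14.3% of the chains against 9.69% of all genes, and 24% of the 25 brighter chains against 14.8% of all genes as bright. Rises made up 6.66% of all genes at day 28. In anti-IFNAR1 against isotype skin at day 28, 3 chains rose and 0 fell: Col15a1, Col4a4 and Col4a5. Their share, 7.14%, lay near the 8.42% of all genes that rose, and 4.90% of all genes fell. They were 12% of the 25 brighter chains, near the 12.9% of all genes as bright. In this comparison 5 chains (11.9%) were higher on every anti-IFNAR1 array, near the 10.3% of all genes, the others being Col5a3 and Col8a2. At day 14 this comparison called 0 chains (3 at an unadjusted limma p under 0.05), where 0.813% of all genes were called. The comparisons at day 28 share the isotype arrays, so a low value there counts in both.

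Single arrays moved these counts. At day 14, 7 chains were called without syngeneic array 1 and 6 without isotype array 4. At day 28, 3 chains fell without syngeneic array 1 and 2 without isotype array 4, and 1 rose in anti-IFNAR1 skin without isotype array 4 or without anti-IFNAR1 array 1. Without the 5 arrays of high Gapdh ratio, the 2 chains of day 14 were called again. At day 28 this left 5 lower chains in isotype skin, of which 3 were among the 6 (Col15a1, Col23a1 and Col5a3) and the others were Col13a1 and Col16a1, and 3 higher in anti-IFNAR1 skin (Col15a1, Col4a4 and Col5a3). Without the 5 arrays highest in hair follicle genes, 3 chains were lower and 1 higher at day 14. At day 28, 3 were lower in isotype skin (Col15a1, Col5a3 and Col11a1) and Col12a1 was higher, so 2 of the 6 remained, and in anti-IFNAR1 skin Col15a1, Col4a4 and Col5a3 were higher and Col12a1 lower. Both calls of day 14 ended when only the arrays compared were fitted (adjusted p = 0.089 for Col6a2 and 0.14 for Col16a1). Centring the array medians moved the median of all genes at day 28 by 0.15 in isotype against syngeneic skin and by -0.17 in anti-IFNAR1 against isotype skin. It turned the split of called genes from 1211 higher and 1762 lower to 1638 and 1261 in the former comparison, and from 1532 and 891 to 1004 and 1407 in the latter. Quantile normalization gave 1166 and 1088 in the latter. At day 14, centring moved the median of anti-IFNAR1 against isotype skin by 0.11. For the chains, centring gave 5 lower and quantile normalization 4 lower in isotype skin at day 28. They gave 3 and 2 higher in anti-IFNAR1 against isotype skin, where Col12a1 was called lower under both.

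**Figure D1:**
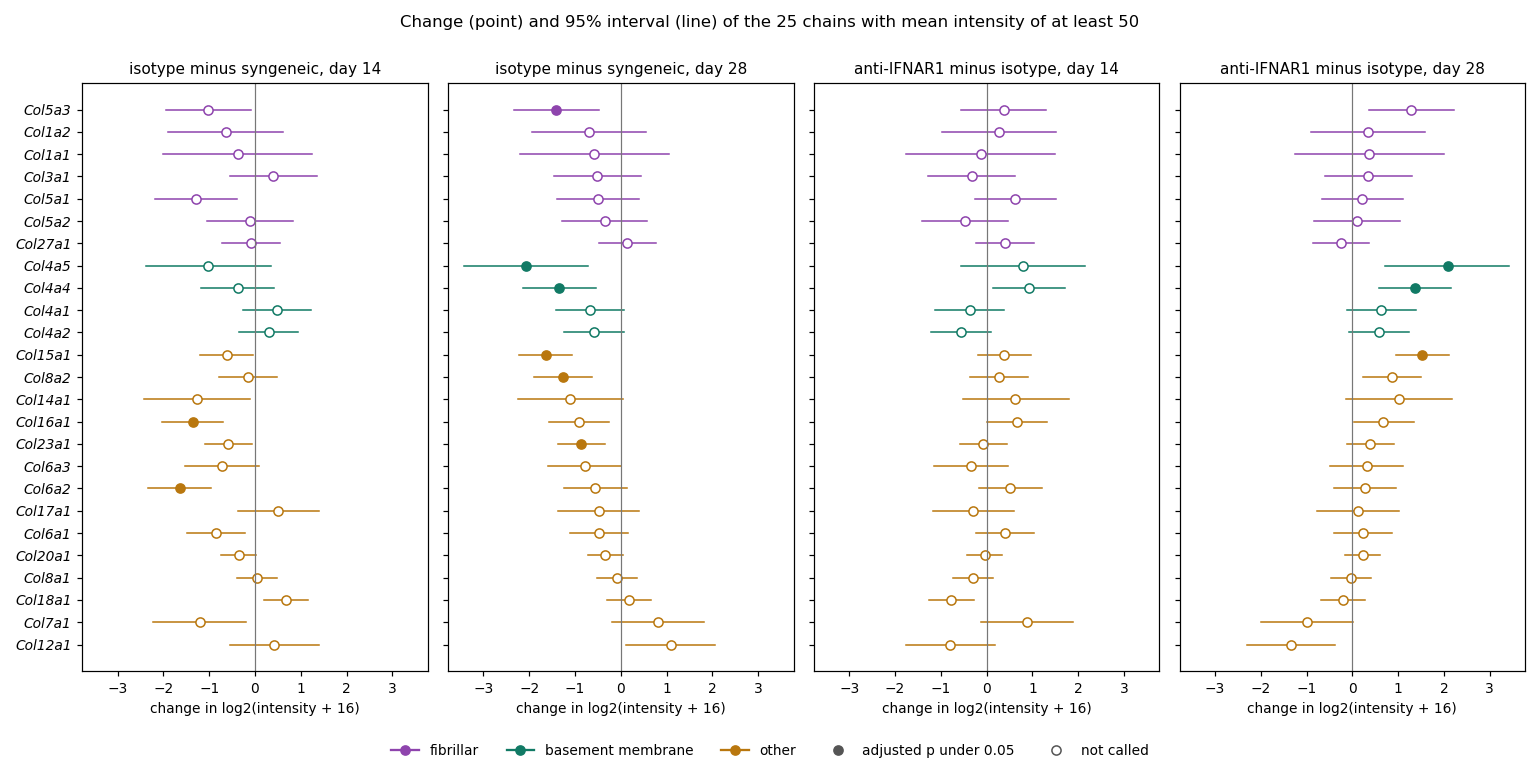
Change in log2(intensity + 16) of the 25 brighter chains in 4 comparisons, 1 panel each, with the point at the limma estimate, the line over its 95% interval, colour for the class and filled points for an adjusted p under 0.05. At day 28 all 4 type IV chains lie left of 0 in isotype against syngeneic skin and right of 0 in anti-IFNAR1 against isotype skin, and the lines of the type I and type III chains cross 0 in every panel.

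The fibrillar chains of type I and type III, the bulk of dermal collagen, were not called in any comparison. Col1a1, which encodes the major chain of type I collagen, measured 11.48, 12.52, 11.80 and 13.45 in syngeneic, 11.97, 12.19, 13.10 and 9.67 in isotype and 11.14, 13.83, 10.97 and 12.46 in anti-IFNAR1 skin at day 28. The groups overlapped throughout, and the lowest value was isotype array 4. The change in isotype against syngeneic skin was -0.58 ± 0.78 (adjusted p = 0.81 by limma, n = 4), with a 95% interval from -2.21 to 1.05. At day 14 the values were 10.09, 12.68, 12.24 and 11.08 in syngeneic, 10.59, 10.73, 11.09 and 12.17 in isotype and 11.38, 11.84, 9.56 and 11.26 in anti-IFNAR1 skin, again with full overlap (-0.38 ± 0.78, adjusted p = 0.82). A rise or a fall of 2-fold in Col1a1 lies within these intervals. The second Col1a1 probe set differed by -1.65 between isotype and syngeneic skin at day 14 where the one used differed by -0.38, so the probe sets of this gene disagree in size. They differ in sign in anti-IFNAR1 against isotype skin, at 0.49 against -0.13 at day 14 and -0.08 against 0.37 at day 28.

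Col1a2, the partner of Col1a1 in type I collagen, measured 13.36, 14.49, 13.24 and 14.60 in syngeneic, 13.68, 13.38, 14.16 and 11.72 in isotype and 13.06, 14.54, 12.80 and 13.91 in anti-IFNAR1 skin at day 28. Isotype array 4 was again the lowest, and the groups overlapped (-0.69 ± 0.60, adjusted p = 0.57). At day 14 it measured 12.21, 14.10, 14.35 and 13.80 in syngeneic, 12.59, 12.63, 12.79 and 13.88 in isotype and 13.52, 13.66, 11.88 and 13.93 in anti-IFNAR1 skin (isotype against syngeneic -0.64 ± 0.60, adjusted p = 0.55). Col3a1, whose type III trimers join type I in thin fibrils, measured 14.30, 14.90, 14.23 and 15.07 in syngeneic, 13.68, 14.25, 15.23 and 13.29 in isotype and 13.72, 14.92, 14.22 and 15.0 in anti-IFNAR1 skin at day 28. Its groups overlapped as well, with a change of -0.51 ± 0.45 in isotype (adjusted p = 0.59) and of 0.35 ± 0.45 in anti-IFNAR1 against isotype skin (adjusted p = 0.81). At day 14 Col3a1 lay between 13.29 and 15.13 in syngeneic and between 14.41 and 14.86 in isotype skin (0.40 ± 0.45, adjusted p = 0.64). Its anti-IFNAR1 values at that day were 14.73, 14.68, 13.22 and 14.63.

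**Figure D2:**
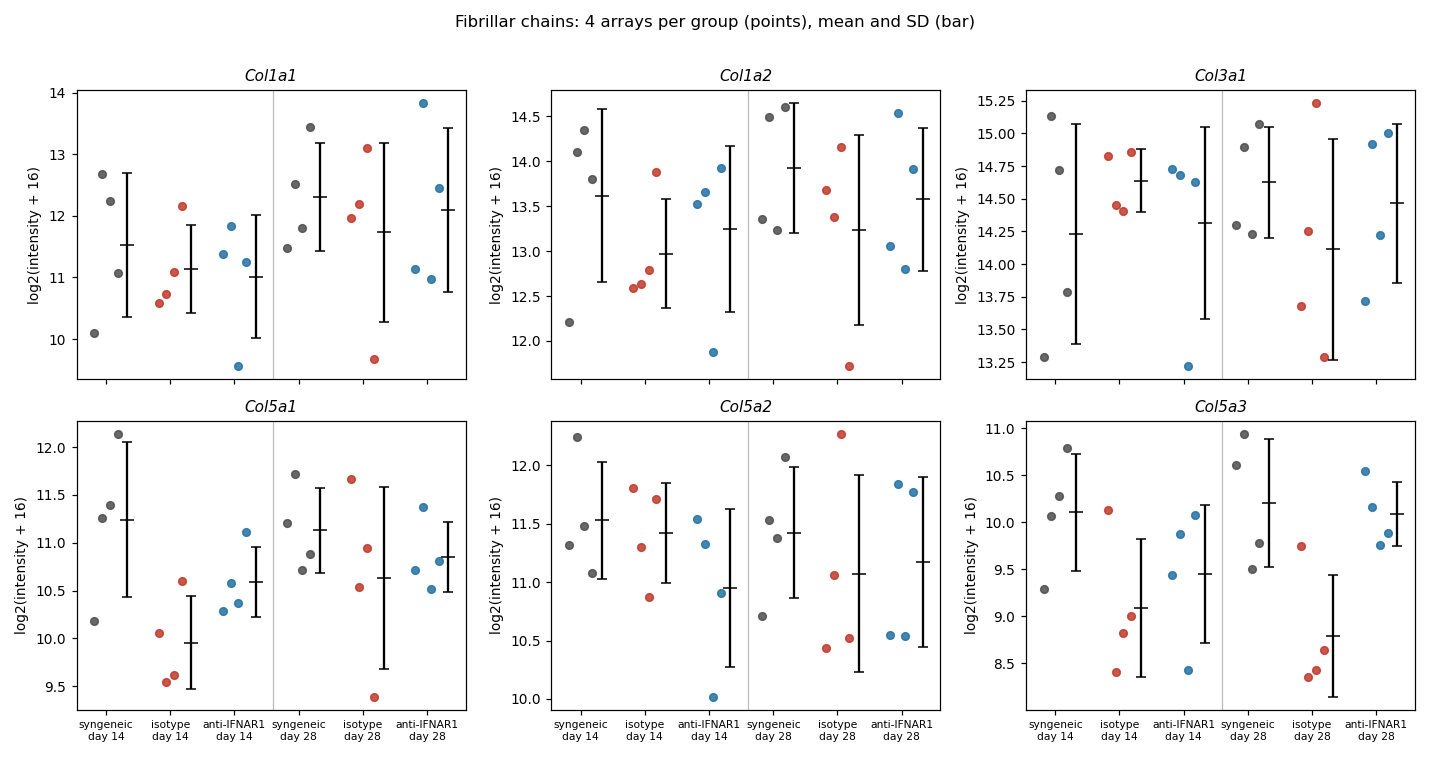
Level of 6 fibrillar chains in log2(intensity + 16) on each array (points, 4 per group), with the group mean and SD as a bar to their right, by graft and antibody at day 14 and day 28. Col1a1, Col1a2 and Col3a1 spread over more than 1 log2 unit within most groups and overlap between groups, and Col5a3 at day 28 lies lower in isotype skin, at 8.36 to 9.75, than in anti-IFNAR1 skin, at 9.76 to 10.54.

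The type V chains, which control the start and width of type I fibrils, gave the fibrillar class its only call. Col5a3 measured 10.61, 10.94, 9.50 and 9.78 in syngeneic and 9.75, 8.36, 8.43 and 8.64 in isotype skin at day 28. Only isotype array 1 reached the range of the syngeneic arrays, and the fall was -1.41 ± 0.44 (2.66-fold, adjusted p = 0.035). In anti-IFNAR1 skin it measured 10.54, 10.16, 9.76 and 9.89, above all isotype arrays, with a change of 1.29 ± 0.44 that missed the threshold (adjusted p = 0.062). The fall of Col5a3 lost its call without syngeneic array 1 or 2 (adjusted p = 0.099 and 0.12), and without isotype array 2, 3 or 4 (0.092, 0.085 and 0.087). Its value after centring the array medians was -1.26 (adjusted p = 0.069). At day 14 Col5a3 lay between 9.29 and 10.79 in syngeneic and between 8.41 and 10.13 in isotype skin (-1.02 ± 0.44, adjusted p = 0.14).

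Col5a1, the chain shared by most type V molecules, measured 10.18, 11.26, 11.39 and 12.14 in syngeneic and 10.06, 9.54, 9.62 and 10.60 in isotype skin at day 14. The ranges met only between syngeneic array 1 and isotype array 4, and the change of -1.29 ± 0.43 just missed the threshold (adjusted p = 0.051). It was called without syngeneic array 1 (-1.64, adjusted p = 0.014) and without isotype array 4 (-1.5, adjusted p = 0.029). The other probe sets of Col5a1 differed by -0.39 and -0.97. At day 28 its difference was -0.49 ± 0.43 (adjusted p = 0.57). Col5a2 differed by -0.11 ± 0.44 at day 14 and by -0.35 ± 0.44 at day 28, with adjusted p of 0.91 and 0.78. Its second bright probe set differed by -0.75 and -0.7 at those days. In anti-IFNAR1 against isotype skin at day 14 the Col5a2 probe sets differed in sign, at 0.28 against -0.47 for the one used. Col27a1, a fibrillar chain of cartilage and other tissues, differed by no more than 0.41 in the 4 main comparisons. Of the dim fibrillar chains, Col2a1, Col11a2 and Col24a1 lay between 4.35 and 4.81 on every array. Col11a1, the remaining fibrillar chain, was at 4.35 to 4.39 on all day 14 arrays and is taken up among the other observations.

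The 300-base window around the Col1a2 start, from 250 bases before to 50 after it, is shown as that of a type I collagen chain whose window was matched, and it holds 2 of the motifs searched (RefSeq, GRCm38.p6, chr6:4505368-4505667, plus strand; capitals mark CCAAT or GGGCGG on either strand).
Col1a2: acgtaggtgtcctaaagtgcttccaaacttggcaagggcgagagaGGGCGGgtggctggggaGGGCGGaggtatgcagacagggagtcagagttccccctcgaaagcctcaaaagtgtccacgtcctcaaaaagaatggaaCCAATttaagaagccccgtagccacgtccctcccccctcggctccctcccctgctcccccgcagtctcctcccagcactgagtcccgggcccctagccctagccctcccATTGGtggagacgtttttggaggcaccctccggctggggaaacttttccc

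Type IV collagen gave the clearest class pattern at day 28. All 4 brighter type IV chains, Col4a1, Col4a2, Col4a4 and Col4a5, were lower on every isotype array than on any syngeneic array, as were 12.1% of all genes. That share includes dim genes, and the share among genes as bright as these chains was not counted. Among all chains 7 showed such a separation (16.7%), the others being Col15a1, Col8a2 and Col23a1. Markers of cells that type IV collagen borders went different ways in the same arrays. The summed intensity of 4 adipocyte genes was 37126 to 52274 in syngeneic, 11135 to 22384 in isotype and 40100 to 62836 in anti-IFNAR1 skin. That of 6 skeletal muscle genes was 149548 to 242955, 76923 to 163733 and 162609 to 234273, with overlap. For 2 Schwann cell genes it was 3292 to 6774, 1313 to 2259 and 1873 to 6449. The 6 endothelial genes overlapped, at 631 to 1425, 606 to 963 and 847 to 1417. The sum of the 6 keratinocyte genes was higher in isotype skin, at 157848 to 177092, 189626 to 223300 and 154054 to 173738. A sum leans on its brightest genes, and of these 6 only Krt14 was called higher against syngeneic skin (1.09 ± 0.18, adjusted p = 4.1e-04 by limma). The part of these markers in the collagen changes was not tested. In whole skin, fewer cells of a type and less RNA per cell cannot be told apart. Of the 4 type IV chains, Col4a4 and Col4a5 passed the test against syngeneic skin and again in anti-IFNAR1 against isotype skin. The Col4a1 and Col4a2 genes are transcribed away from a shared promoter, and Col4a5 and Col4a6 are also transcribed away from each other on the X chromosome, with RefSeq starts 1343 bases apart.

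The shared promoter of Col4a1 and Col4a2 is shown, and its part in their levels was not tested. In RefSeq the starts lie 21 bases apart on opposite strands, at 11312826 for Col4a1 and 11312805 for Col4a2. The transcripts from these starts therefore overlap at their 5' ends, and the shared bases include transcribed sequence. The windows share 78 bases, in capitals, each read on its own gene's strand (GRCm38.p6). The Col4a1 window is chr8:11312777-11313076, minus strand, and the Col4a2 window is chr8:11312555-11312854, plus strand.
Col4a1: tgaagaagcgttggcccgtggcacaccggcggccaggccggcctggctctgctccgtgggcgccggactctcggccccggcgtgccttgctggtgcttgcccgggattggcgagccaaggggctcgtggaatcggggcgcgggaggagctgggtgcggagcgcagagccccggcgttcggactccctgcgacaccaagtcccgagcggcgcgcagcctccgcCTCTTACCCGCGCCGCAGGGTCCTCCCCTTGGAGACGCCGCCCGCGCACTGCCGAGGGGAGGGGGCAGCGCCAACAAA
Col4a2: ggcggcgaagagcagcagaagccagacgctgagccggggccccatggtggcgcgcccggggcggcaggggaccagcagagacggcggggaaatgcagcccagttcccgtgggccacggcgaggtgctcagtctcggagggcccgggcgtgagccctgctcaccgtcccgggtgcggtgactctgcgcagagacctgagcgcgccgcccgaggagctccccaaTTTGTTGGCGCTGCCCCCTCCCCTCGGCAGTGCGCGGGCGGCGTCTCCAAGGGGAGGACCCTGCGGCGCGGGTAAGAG

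Col4a4 is found with Col4a3 and Col4a5 in some basement membranes, though Col4a3 was at background on these arrays. Col4a4 measured 7.86, 7.33, 8.21 and 7.44 in syngeneic, 6.70, 6.26, 6.35 and 6.16 in isotype and 8.58, 7.33, 7.56 and 7.50 in anti-IFNAR1 skin at day 28. Isotype skin was lower than both other groups without overlap. The fall was -1.34 ± 0.38 (adjusted p = 0.019) and the difference of anti-IFNAR1 from isotype skin 1.37 ± 0.38 (adjusted p = 0.020). The second bright probe set gave -1.57 and 1.3. The fall lost its call without the 5 arrays of high Gapdh ratio (-1.29, adjusted p = 0.083), without the 5 highest in hair follicle genes (-1.34, 0.12), with the hair follicle mean as a covariate (-1.26, 0.064) and, like the rise, with quantile normalization (-1.19, 0.054, and 1.20, 0.060). It was also lost without syngeneic array 3 (adjusted p = 0.062) or isotype array 4 (0.055), and the rise without isotype array 4 (0.059) or anti-IFNAR1 array 1 (0.083), with sizes between 1.09 and 1.51 in the latter comparison. At day 14, where 4.56% of all genes were higher on every anti-IFNAR1 than on any isotype array, Col4a4 measured 5.40, 7.27, 7.59 and 7.64 in syngeneic, 6.70, 6.73, 6.23 and 6.73 in isotype and 7.78, 7.37, 7.32 and 7.64 in anti-IFNAR1 skin. The anti-IFNAR1 arrays lay above the isotype arrays at that day too, with a difference of 0.93 ± 0.38 that did not pass (adjusted p = 0.22).

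Col4a5, present in the basement membrane of epidermis and other epithelia, measured 7.95, 7.80, 8.62 and 8.47 in syngeneic, 4.77, 7.05, 7.41 and 5.31 in isotype and 7.94, 8.18, 8.56 and 8.17 in anti-IFNAR1 skin at day 28. Isotype skin was again lower without overlap, but its arrays spread widely, with arrays 1 and 4 near the background. The changes were -2.08 ± 0.65 (adjusted p = 0.033) and 2.08 ± 0.65 (adjusted p = 0.039). Leaving out any 1 of 5 arrays ended the former call: syngeneic array 1, 3 or 4 (adjusted p = 0.056, 0.081 and 0.078) or isotype array 1 or 4 (0.13 and 0.11). Leaving out any 1 of 6 ended the latter: isotype array 1 or 4 (0.14 and 0.13) or any of the anti-IFNAR1 arrays 1 to 4 (0.066, 0.058, 0.099 and 0.078). Without the 5 arrays of high Gapdh ratio the changes were -1.48 (adjusted p = 0.23) and 1.62 (adjusted p = 0.16), and without the 5 highest in hair follicle genes -1.29 (adjusted p = 0.49) and 1.63 (adjusted p = 0.23). The mean of the Col4a5 probe sets gave -1.09 and 1.08, both still called (adjusted p = 0.032 and 0.038). At day 14 Col4a5 measured 4.76, 7.26, 6.69 and 8.66 in isotype and between 6.97 and 8.32 in syngeneic skin (-1.02 ± 0.65, adjusted p = 0.34).

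Col4a1 and Col4a2, the chains of the ubiquitous type IV network, moved less. At day 28 Col4a1 measured 12.97, 13.42, 13.06 and 13.02 in syngeneic, 12.79, 12.03, 12.66 and 12.33 in isotype and 12.79, 13.67, 12.57 and 13.32 in anti-IFNAR1 skin. Every isotype array was below every syngeneic one, but the change of -0.67 ± 0.36 did not pass (adjusted p = 0.25). Col4a2 measured 10.82, 11.14, 10.94 and 11.02 in syngeneic, 10.60, 10.25, 10.49 and 10.23 in isotype and 10.98, 11.55, 10.39 and 10.98 in anti-IFNAR1 skin, likewise separated from syngeneic and not called (-0.59 ± 0.31, adjusted p = 0.25). At day 14 isotype array 1 stood apart in both chains, at 14.57 in Col4a1 and 11.96 in Col4a2, while the other isotype arrays ran from 12.83 to 12.91 and from 10.27 to 10.68. The second Col4a1 probe set gave -0.56 in isotype against syngeneic and 0.75 in anti-IFNAR1 against isotype skin at day 28.

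The windows of Col4a4 and Col4a5 are shown for the called type IV chains (capitals mark the CCAAT motif, the GC box GGGCGG or the TATA box TATAAA on either strand, and the Col4a4 window has none of them). They lie at chr1:82586800-82587099, minus strand, and chrX:141475169-141475468, plus strand (RefSeq, GRCm38.p6).
Col4a4: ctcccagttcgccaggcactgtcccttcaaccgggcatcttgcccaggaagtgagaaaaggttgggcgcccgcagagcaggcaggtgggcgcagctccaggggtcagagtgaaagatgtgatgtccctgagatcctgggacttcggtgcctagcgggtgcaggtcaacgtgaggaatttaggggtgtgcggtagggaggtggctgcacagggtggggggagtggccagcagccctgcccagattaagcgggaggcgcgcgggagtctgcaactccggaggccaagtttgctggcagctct
Col4a5: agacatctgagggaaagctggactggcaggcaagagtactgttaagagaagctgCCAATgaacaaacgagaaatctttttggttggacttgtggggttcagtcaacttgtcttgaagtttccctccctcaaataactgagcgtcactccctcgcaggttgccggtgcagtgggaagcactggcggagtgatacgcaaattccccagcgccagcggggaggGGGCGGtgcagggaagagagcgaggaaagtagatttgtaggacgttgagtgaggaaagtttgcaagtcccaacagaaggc

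**Figure D3:**
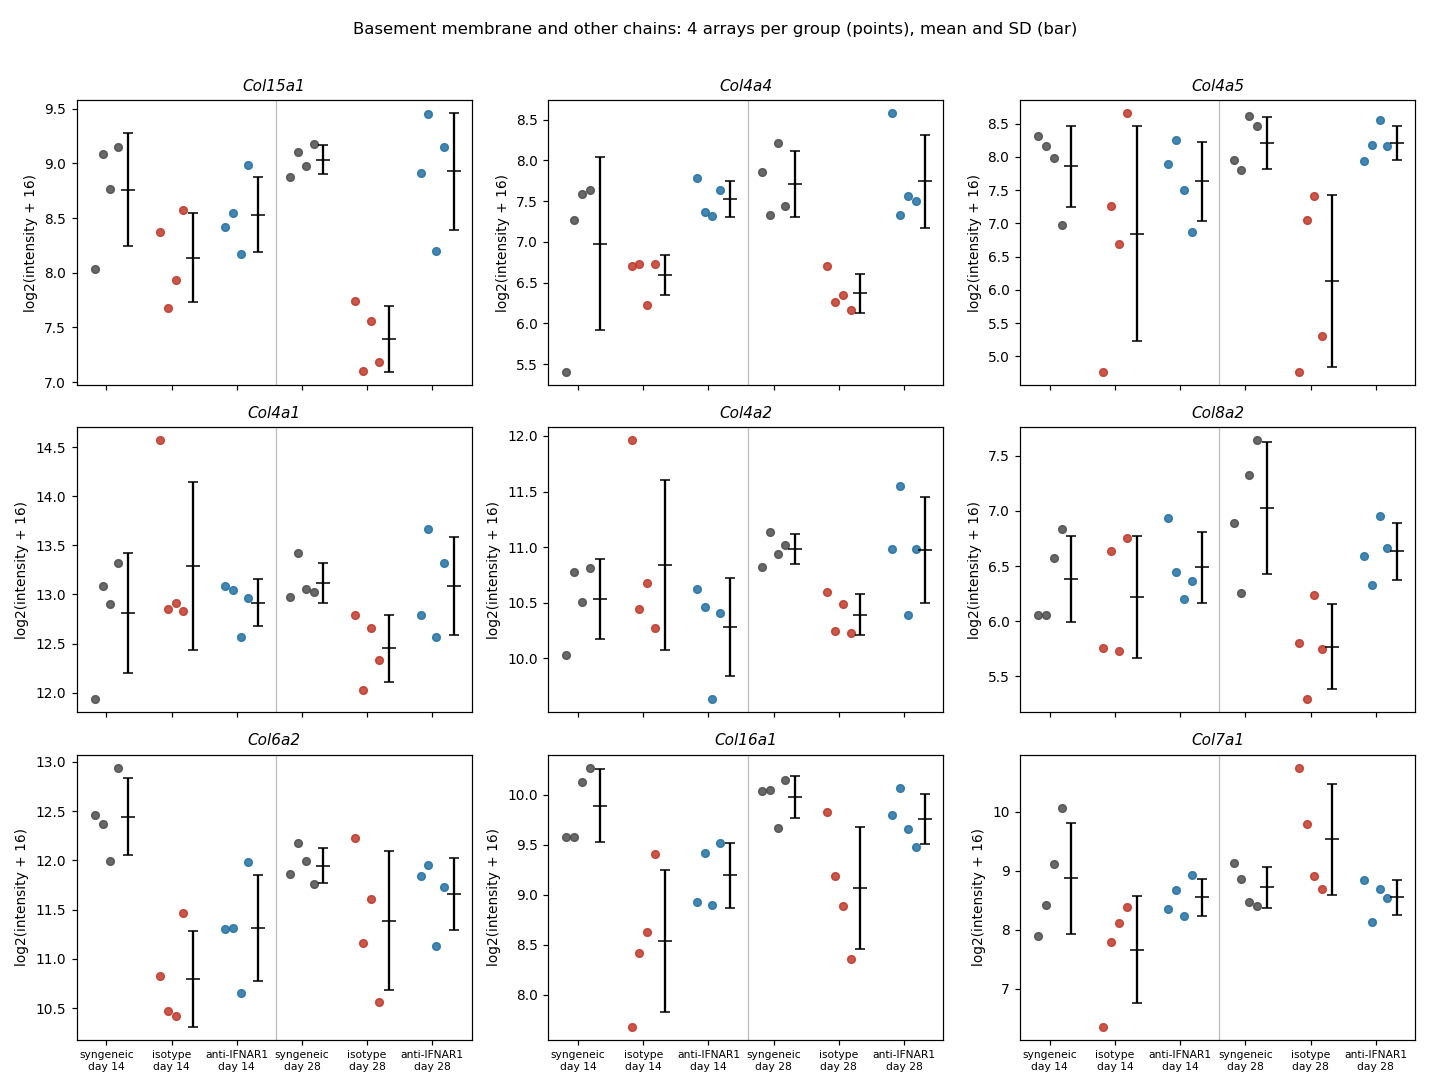
Level of 9 type IV and other chains in log2(intensity + 16) on each array (points, 4 per group), with the group mean and SD as a bar to their right. At day 28 the isotype arrays of Col15a1 lie at 7.10 to 7.74, below the syngeneic arrays at 8.88 to 9.18 and the anti-IFNAR1 arrays at 8.20 to 9.45, and at day 14 the isotype arrays of Col6a2 and Col16a1 lie below the syngeneic ones.

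Col15a1, a multiplexin that links basement membranes of vessels, muscle and fat to the fibrils beside them, had the smallest p of all chains. At day 28 it measured 8.88, 9.10, 8.98 and 9.18 in syngeneic, 7.74, 7.10, 7.56 and 7.18 in isotype and 8.91, 9.45, 8.20 and 9.15 in anti-IFNAR1 skin. Isotype skin lay below both other groups on every array. The fall was -1.64 ± 0.27 (3.12-fold, adjusted p = 4.6e-04) and the rise in anti-IFNAR1 against isotype skin 1.53 ± 0.27 (2.89-fold, adjusted p = 0.0013). Both calls held in all 21 alternatives run for each comparison, with changes from -1.77 to -1.35 and from 1.36 to 1.77. Anti-IFNAR1 and syngeneic skin differed by -0.11 ± 0.27 at day 28, with a 95% interval from -0.69 to 0.47. At day 14 Col15a1 measured 8.03, 9.09, 8.77 and 9.15 in syngeneic, 8.37, 7.68, 7.93 and 8.57 in isotype and 8.42, 8.55, 8.17 and 8.99 in anti-IFNAR1 skin, with overlap and no call (-0.62 ± 0.27, adjusted p = 0.15). The growth of the fall from day 14 to day 28, tested as an interaction, was -1.02 ± 0.39 and did not pass (adjusted p = 0.40).

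The Col15a1 window is shown because this chain has the smallest p. It lies at chr4:47207762-47208061, plus strand (RefSeq, GRCm38.p6), and holds none of these motifs, so it has no capitals.
Col15a1: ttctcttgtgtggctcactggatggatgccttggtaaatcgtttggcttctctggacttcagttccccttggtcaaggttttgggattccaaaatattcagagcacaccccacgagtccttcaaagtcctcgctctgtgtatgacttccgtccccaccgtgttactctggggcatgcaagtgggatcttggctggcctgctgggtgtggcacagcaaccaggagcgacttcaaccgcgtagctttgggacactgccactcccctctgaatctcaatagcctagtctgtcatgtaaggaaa

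RefSeq windows were matched for 33 of the 42 chains, giving 36 windows. A window is placed on 1 start, and the RefSeq span of a gene can begin elsewhere. That of Col15a1 begins at 47207655, ahead of its window. On either strand CCAAT was in 36.1% of them and in 37.4% of all 32851 windows, GGGCGG in 61.1% and 35.7%, and TATAAA in 13.9% and 13.6%. TTCNNNGAA, which reads the same on both strands and is the pattern bound by STAT factors, was in 1 chain window, that of Col6a5 (2.78%, against 8.30% of all). The last pattern searched, that of the interferon-stimulated response element, was in 0 of the 36 windows and in 3.44% of all. None of the 4 motifs spelled out holds another, and a match describes the letters of a window only.

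Col18a1, the other multiplexin and the source of endostatin, went the other way at day 14. It measured 8.15, 8.48, 8.20 and 8.56 in syngeneic and 9.19, 8.93, 9.17 and 8.80 in isotype skin, the only chain higher on every isotype array, where 5.12% of all genes were. The difference of 0.67 ± 0.23 did not pass (adjusted p = 0.060), but it was called without isotype array 4 (0.75, adjusted p = 0.049). Anti-IFNAR1 skin at day 14 measured 8.64, 8.11, 8.27 and 8.0, below every isotype array (-0.77 ± 0.23, adjusted p = 0.11). In that comparison 7.51% of all genes were lower without overlap. At day 28 isotype and syngeneic skin differed by 0.19 ± 0.23 in Col18a1 (adjusted p = 0.78).

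The type VI chains form beaded filaments around fibroblasts and muscle fibres. Col6a2 gave the strongest call at day 14, with 12.46, 12.37, 11.99 and 12.94 in syngeneic and 10.83, 10.47, 10.42 and 11.47 in isotype skin. The groups did not overlap, as in 8.13% of all genes in that direction, and the fall was -1.64 ± 0.33 (3.12-fold, adjusted p = 0.0039). Anti-IFNAR1 skin lay between, at 11.30, 11.31, 10.66 and 11.98, and differed from isotype by 0.52 ± 0.33 (adjusted p = 0.44). By day 28 the difference between isotype and syngeneic skin was -0.56 ± 0.33 (adjusted p = 0.31), with isotype values of 12.23, 11.16, 11.61 and 10.56 around syngeneic values of 11.86, 12.18, 11.99 and 11.76. The change of the difference between days was 1.08 ± 0.46 and did not pass (adjusted p = 0.46).

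Its trimer partners had smaller differences of the same sign at day 14. Col6a1 measured 11.47, 12.40, 11.83 and 12.05 in syngeneic and 10.96, 10.84, 10.99 and 11.57 in isotype skin, meeting only at syngeneic array 1 and isotype array 4 (-0.85 ± 0.30, adjusted p = 0.065). Without syngeneic array 1 and without isotype array 4, Col6a1 was called. Col6a3 ran from 11.51 to 12.39 in syngeneic and from 10.96 to 11.64 in isotype skin (-0.72 ± 0.38, adjusted p = 0.24). At day 28 they differed by -0.48 ± 0.30 and -0.79 ± 0.38, with adjusted p of 0.36 and 0.19. Col6a4 and Col6a5 were dim, between 4.45 and 4.80 on every array.

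Among the FACIT chains, Col16a1, found near basement membranes and in dermal microfibrils, fell at day 14. It measured 9.58, 9.58, 10.13 and 10.27 in syngeneic and 7.68, 8.42, 8.63 and 9.41 in isotype skin, without overlap (-1.36 ± 0.31, adjusted p = 0.0087). At day 28 it measured 10.04, 10.05, 9.67 and 10.15 in syngeneic and 9.83, 9.19, 8.89 and 8.36 in isotype skin, where only isotype array 1 reached the syngeneic range (-0.91 ± 0.31, adjusted p = 0.056). Col14a1, which coats type I fibrils, differed by -1.27 ± 0.55 at day 14 and -1.10 ± 0.55 at day 28, neither called (adjusted p = 0.14 and 0.21). Its isotype arrays ran from 7.83 to 10.40 at day 14 and from 7.51 to 10.07 at day 28, across much of the syngeneic range.

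Col12a1, a FACIT chain of tissues under tension, had the opposite sign at day 28. It measured 6.45, 6.11, 6.84 and 8.67 in syngeneic, 7.72, 7.75, 9.18 and 7.80 in isotype and 6.24, 7.76, 6.76 and 6.30 in anti-IFNAR1 skin. The isotype arrays were the higher ones apart from syngeneic array 4 and anti-IFNAR1 array 2, both of them arrays with a high hair follicle mean (11.87 and 13.80). Syngeneic array 3, with a hair follicle mean of 12.38, was at only 6.84 in Col12a1. Isotype array 3, the highest in Col12a1, had a hair follicle mean of 5.31. The differences were 1.09 ± 0.46 (adjusted p = 0.13) and -1.34 ± 0.46 (adjusted p = 0.062). Without syngeneic array 4 the former was 1.64 (adjusted p = 0.0075), and without anti-IFNAR1 array 2 the latter was -1.68 (adjusted p = 0.021). Without all 5 arrays highest in hair follicle genes they were 1.96 (adjusted p = 0.0079) and -1.81 (adjusted p = 0.0061), a setting chosen after the data were seen. Over all 21 alternatives the difference of isotype from syngeneic skin ran from 0.49 to 1.96. That of anti-IFNAR1 from isotype skin ran from -1.81 to -0.65, where -0.65 came from the mean of the Col12a1 probe sets (adjusted p = 0.015).

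Col7a1 and Col17a1 tie the epidermis to the dermis. Col7a1, the anchoring fibril chain, measured 6.36, 7.80, 8.12 and 8.39 in isotype skin at day 14 and 10.75, 9.80, 8.91 and 8.69 at day 28. The days did not overlap, and Col7a1 was the only chain called between days (1.87 ± 0.48, adjusted p = 0.048), where 1.15% of all genes rose and 3.09% were higher without overlap. The call is at the threshold: it was lost without isotype array 1 of either day (adjusted p = 0.15 at day 14 and 0.18 at day 28), without day 14 array 2, 3 or 4 (0.085, 0.062 and 0.052) and without day 28 array 2 (0.12). Without the 5 arrays of high Gapdh ratio the change was 1.46 (adjusted p = 0.16), and without those of high hair follicle mean it was 1.46 (adjusted p = 0.24). Against syngeneic skin of the same day Col7a1 differed by -1.21 ± 0.48 at day 14 and 0.82 ± 0.48 at day 28 (adjusted p = 0.10 and 0.31), and the change of sign between days did not pass (2.02 ± 0.68, adjusted p = 0.32). Col17a1, a transmembrane chain of the hemidesmosome, differed by 0.51 ± 0.42 and -0.48 ± 0.42 at those days (adjusted p = 0.49 and 0.58), with arrays from 10.93 to 12.75 over all groups at day 14.

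Col23a1 and Col8a2 completed the chains that fell at day 28. Col8a2, a short-chain collagen of the basement membrane beneath some endothelia, measured 6.89, 6.26, 7.33 and 7.64 in syngeneic and 5.80, 5.29, 6.24 and 5.75 in isotype skin, separated by a narrow gap (-1.26 ± 0.30, adjusted p = 0.0067). It remained called with each array left out in turn, but not without the 5 arrays of high Gapdh ratio (-1.17, adjusted p = 0.055) or the 5 highest in hair follicle genes (-0.81, adjusted p = 0.22). Col23a1, a transmembrane collagen of epithelia, measured 7.88, 7.56, 7.51 and 7.64 in syngeneic and 7.18, 6.53, 7.39 and 6.03 in isotype skin (-0.87 ± 0.24, adjusted p = 0.019). Its call was lost without syngeneic array 1 (adjusted p = 0.062) and without isotype array 2 or 4 (0.055 and 0.084), and the mean of its probe sets gave -0.60 (adjusted p = 0.24). Anti-IFNAR1 skin at day 28 lay at 6.59, 6.33, 6.95 and 6.66 for Col8a2, above every isotype array, and differed from isotype by 0.86 ± 0.30 (adjusted p = 0.066). For Col23a1 it lay at 7.14, 6.99, 7.31 and 7.25, within the isotype range.

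By class, the chains were compared through the median of their changes. In isotype against syngeneic skin at day 28 the brighter chains had a median of -0.51 for the 7 fibrillar, -1.01 for the 4 type IV and -0.52 for the 14 other chains, where all genes as bright had -0.12. Over all members, dim ones included, the medians were -0.49, -0.63 and -0.01. In anti-IFNAR1 against isotype skin at day 28 the brighter chains had 0.34, 1.0 and 0.25, and genes as bright 0.12. At day 14 the isotype medians were -0.38, -0.04 and -0.60 against -0.07 for genes as bright, and those for anti-IFNAR1 against isotype skin were 0.27, 0.21 and 0.11 against -0.04. So the type IV class was lowest at day 28 and not at day 14, when the fibrillar and other classes were lower. With the hair follicle mean as a covariate the day 28 medians over all members were -0.02 for fibrillar and -0.36 for type IV chains. Single arrays mattered most to the fibrillar class, whose day 28 median over all members ran from -0.75 to -0.08 as arrays were left out, the latter without isotype array 4, against -0.72 to -0.53 for type IV.

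The mean of each class on an array, after subtracting each chain's own mean over the 24 arrays, shows the spread behind those medians. The 4 type IV chains averaged 0.34, 0.36, 0.65 and 0.42 in syngeneic, -0.85, -0.67, -0.33 and -1.05 in isotype and 0.51, 0.62, 0.21 and 0.43 in anti-IFNAR1 skin at day 28. Isotype skin lay below both other groups on each array. The 7 fibrillar chains averaged 0.09, 0.77, -0.02 and 0.65 in syngeneic, 0.22, -0.21, 0.42 and -1.16 in isotype and -0.19, 0.80, -0.33 and 0.37 in anti-IFNAR1 skin, with the groups overlapping and isotype array 4 far below the rest. The 14 other chains averaged between 0.17 and 0.59 in syngeneic and between -0.66 and 0.18 in isotype skin, with syngeneic array 3 at 0.17 and isotype array 3 at 0.18.

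**Figure D4:**
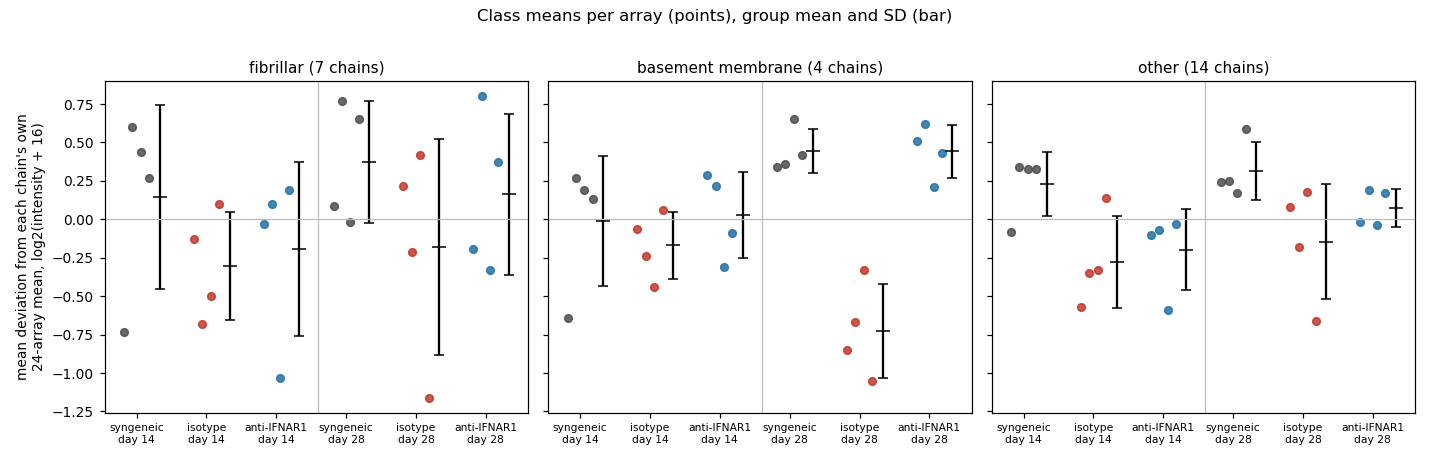
Mean deviation of each class from its chains' own 24-array means, in log2(intensity + 16), on each array (points, 4 per group), with the group mean and SD as a bar to their right and 1 panel per class. The type IV arrays of isotype skin at day 28 (-1.05 to -0.33) lie apart from all other day 28 arrays (0.21 to 0.65), while the fibrillar arrays of the 3 groups overlap.

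Chains that build one molecule, and the type I and type III chains Col1a1 and Col3a1, which meet in the same fibrils, were compared across the 24 arrays after the group means were removed, in 11 pairs, with p from 100000 permutations within groups adjusted over the pairs. Col1a1 and Col1a2 of type I collagen varied together closely, with Pearson r = 0.94 and Spearman rho = 0.91 (adjusted permutation p = 5.5e-05 and 8.2e-05), and r stayed at 0.94 without the 2 arrays farthest from the Col1a1 median. Col1a1 and Col3a1 had r = 0.87 and rho = 0.87, and r = 0.87 without the 2 farthest arrays (adjusted permutation p = 3.7e-05 and 8.2e-05). Col4a1 and Col4a2 of type IV had r = 0.92 and rho = 0.91, and r = 0.87 without the 2 farthest (adjusted permutation p = 3.7e-05 and 5.5e-05). In type VI, Col6a1 had r = 0.90 with Col6a3 (rho = 0.90, adjusted permutation p = 3.7e-05 and 5.5e-05) and r = 0.79 with Col6a2 (rho = 0.68, adjusted permutation p = 0.0016 and 0.0049), or 0.82 and 0.67 without the 2 farthest arrays. Both chains of a pair are read on the same array, so they share its RNA quality and its mix of cells.

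Of the other pairs, only Col9a1 with Col9a3, both dim, varied together beyond the permutations. Col5a1 and Col5a2 of type V had r = 0.17 (rho = 0.21, adjusted permutation p = 0.65 and 0.39), although both are bright. The probe sets of Col5a2 disagree in size, and this pair was read from the probe set used for each chain only. Col8a1 and Col8a2 had r = -0.28 (rho = -0.25, adjusted permutation p = 0.29 and 0.33), and Col8a1 differed by 0.04 and -0.08 between isotype and syngeneic skin at days 14 and 28, where Col8a2 fell at day 28. The pairs Col4a5 with Col4a6, Col4a3 with Col4a4 and Col11a1 with Col2a1 each hold a chain at background and gave adjusted permutation p of 0.23, 0.92 and 0.65. Col9a1 and Col9a3, both dim, had r = 0.76 (rho = 0.74, adjusted permutation p = 0.0036 and 0.0018), and r = 0.59 without the 2 farthest arrays.

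**Figure D5:**
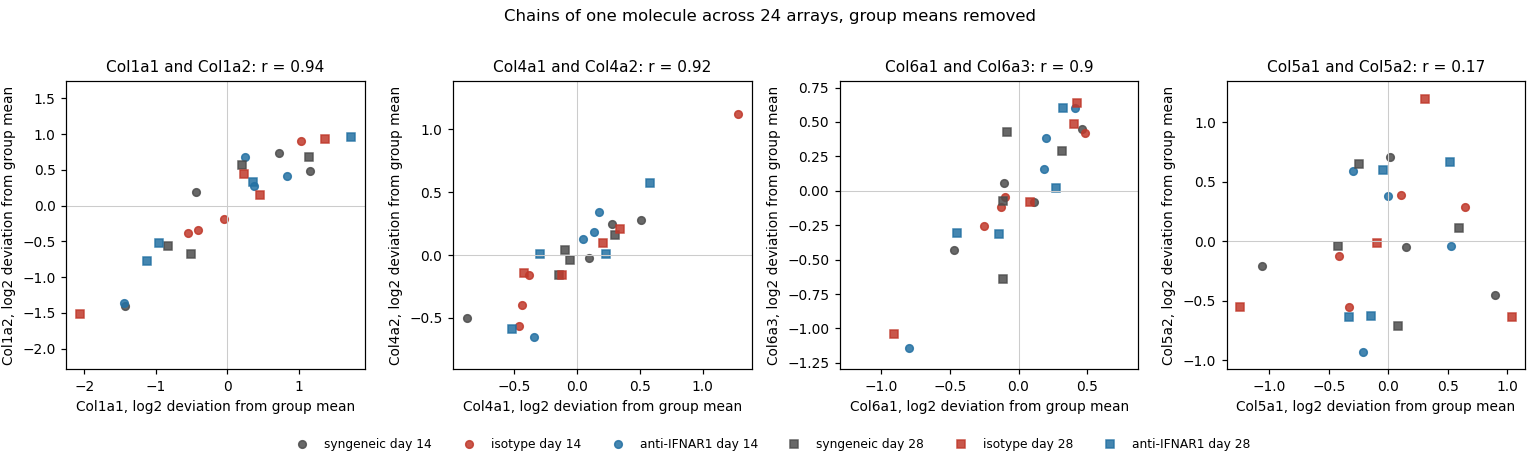
Deviation from the group mean in log2(intensity + 16) of 4 pairs of chains on the 24 arrays, 1 point per array, coloured by group, with circles for day 14 and squares for day 28. The pairs Col1a1 with Col1a2, Col4a1 with Col4a2 and Col6a1 with Col6a3 follow a line (r = 0.94, 0.92 and 0.90). Col5a1 with Col5a2 does not, for the probe sets used (r = 0.17).

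The remaining comparisons called few chains. Anti-IFNAR1 skin against syngeneic skin gave 0 chains at day 14 and 0 at day 28 (5 and 0 at an unadjusted limma p under 0.05), where 1.12% and 0.033% of all genes were called. At day 14 Col6a2 was still lower in anti-IFNAR1 than in syngeneic skin by 1.12 ± 0.33 without passing the adjustment (difference -1.12, adjusted p = 0.10). Between days, syngeneic and anti-IFNAR1 skin gave 0 chains each (1 each at an unadjusted p), with 0.066% and 0.539% of all genes called. The difference between days of isotype against syngeneic skin and of anti-IFNAR1 against isotype skin gave 0 chains each by limma (5 and 3 at an unadjusted p), with 0.044% and 0.0715% of all genes called. No chain was therefore shown to respond differently at the 2 days.

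Genes that make, coat, bind and break down collagen were read from lists put together with earlier results of these data known. Of 27 measured genes of collagen synthesis and cross-linking, 1 rose and 2 fell in isotype skin at day 14, and 1 rose and 3 fell at day 28. Of all genes, 5.29% rose and 8.30% fell at day 14, and 6.66% rose and 9.69% fell at day 28. Among genes with a mean of at least 50, 12.4% fell at day 14 and 14.8% at day 28. The counts of this list lie near the shares of all genes, so they set it apart in neither direction. The riser on both days was Plod3, a lysyl hydroxylase and glycosyltransferase of collagen (0.78 ± 0.24 and 0.76 ± 0.24, adjusted p = 0.037 and 0.036). The fallers at day 28 were Pcolce2 (-2.14 ± 0.63, adjusted p = 0.024) and Pcolce (-0.88 ± 0.26, adjusted p = 0.023), enhancers of procollagen trimming, and the collagen chaperone Serpinh1 (-0.83 ± 0.27, adjusted p = 0.039). At day 14 Pcolce and the prolyl hydroxylase subunit P4ha2 fell (-0.91 ± 0.26 and -0.80 ± 0.20, adjusted p = 0.025 and 0.014). These calls lie near the threshold: leaving out 1 array at a time ended that of Serpinh1 in 6 of 8 fits, of Pcolce2 in 4, and of Plod3 in 5 at day 14 and 4 at day 28. That of Pcolce was lost in 3 of 8 fits at each day. The medians of this list were -0.01 and 0.00, near those of all genes, and none of its members was called in anti-IFNAR1 against isotype skin at either day.

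Proteoglycans that sit on fibrils were also read, in a list that holds Dpt, a matrix protein that is not itself a proteoglycan. Dpt is also among the fibroblast genes below. Of 10 measured genes of this list, 0 rose and 3 fell in isotype skin at each day: Fmod, Dpt and Podn at day 14, and Ogn, Fmod and Dpt at day 28. Of all genes, 8.30% fell at day 14 and 9.69% at day 28. Ogn had the largest change (-3.24 ± 0.61, adjusted p = 0.0011), followed by Fmod (-2.40 ± 0.71, adjusted p = 0.025) and Dpt (-1.40 ± 0.30, adjusted p = 0.0030). The list's median at day 28 was -1.0. In anti-IFNAR1 against isotype skin at day 28, Ogn (2.45 ± 0.61, adjusted p = 0.011) and Dpt (1.19 ± 0.30, adjusted p = 0.011) rose. Of 9 collagen receptors, the inhibitory leukocyte receptor Lair1 rose at day 14 and day 28 (1.5 ± 0.29 and 1.76 ± 0.29, adjusted p = 0.0031 and 3.7e-04) and fell in anti-IFNAR1 skin at day 28 (-1.30 ± 0.29, adjusted p = 0.0054). Mrc2, which takes up collagen fragments, and the receptor kinase Ddr1 fell at day 14 (-1.42 ± 0.43 and -0.84 ± 0.19, adjusted p = 0.036 and 0.0083). Leaving out 1 array ended the day 14 calls of Fmod and Mrc2 in 5 of 8 fits each, and the day 28 call of Fmod in 3 of 8. With the mean of all probe sets, Fmod at both days and Ddr1 at day 14 were not called. The rise of Ogn and the fall of Lair1 in anti-IFNAR1 skin were not called in that setting either.

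Collagen breakdown genes included the collagenase Mmp13, with the largest change among the called genes of these 5 lists. Of 10 measured, 3 rose and 1 fell in isotype skin at day 28, where 6.66% of all genes rose and 9.69% fell. Mmp13 rose by 6.50 ± 0.98 (90.7-fold, adjusted p = 1.9e-04), the gelatinase Mmp9 by 3.14 ± 0.46 (adjusted p = 1.6e-04) and the inhibitor Timp1 by 2.52 ± 0.66 (adjusted p = 0.013), while the inhibitor Timp2 fell (-1.05 ± 0.20, adjusted p = 0.0013). The Timp2 calls rest on the probe set used: the mean of its probe sets gave -0.33 in isotype (adjusted p = 0.74) and 0.15 in anti-IFNAR1 skin (adjusted p = 0.98) at day 28. In anti-IFNAR1 against isotype skin at day 28 each had the other sign: Mmp13 -5.89 ± 0.98, Mmp9 -2.81 ± 0.46, Timp1 -2.39 ± 0.66 and Timp2 0.88 ± 0.20 (adjusted p = 7.6e-04, 6.4e-04, 0.021 and 0.0063). At day 14 Mmp13 and Timp1 rose and Timp2 fell in isotype skin (3.25 ± 0.98, 2.53 ± 0.66 and -0.81 ± 0.20), though the mean of the Timp2 probe sets gave 0.28 and the call of Mmp13 was lost in 5 of 8 fits that left out 1 array. In such fits the call of Timp1 was lost in 3 of 8 at day 14. Its fall in anti-IFNAR1 against isotype skin at day 28 was also lost in 3 of 8. Of 9 TGF beta pathway genes, which drive collagen synthesis in fibroblasts, Tgfb1 rose (1.34 ± 0.32, adjusted p = 0.0070) and Smad2, Smad3 and Tgfb2 fell at day 28 (-0.86 ± 0.18, -0.80 ± 0.18 and -1.31 ± 0.41, adjusted p = 0.0024, 0.0042 and 0.033). The call of Tgfb2 was lost in 7 of 8 fits that left out 1 array. At day 14 Tgfb1 rose (1.11 ± 0.32) and Smad2 and Smad3 each fell (-0.91 ± 0.18), and in anti-IFNAR1 skin at day 28 Smad2 and Smad3 rose (0.65 ± 0.18 and 0.70 ± 0.18). With the mean of its probe sets Smad2 was not called in any of these comparisons (adjusted p = 0.12 for the fall at day 28). The rises of Smad2 and Smad3 were each lost in 6 of 21 alternatives, quantile normalization and centring among them. Leaving out 1 array at a time ended the day 14 call of Tgfb1 in 5 of 8 fits.

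Markers of several cell types moved with the results of both days. Their counts stand beside the shares of all genes. In isotype skin 5.29% rose and 8.30% fell at day 14, and 6.66% rose and 9.69% fell at day 28. In anti-IFNAR1 against isotype skin at day 28, 8.42% rose and 4.90% fell. At day 14, when Col6a2 and Col16a1 fell, 5 of 10 fibroblast genes other than collagens (Dpt, Fap, Mfap5, Pdgfra and Pi16) fell in isotype skin, and 4 of 5 macrophage and 5 of 5 T cell genes rose. Endothelial Tek, adipocyte Lep, muscle Myh1 and keratinocyte Dsp also fell at that day, while keratinocyte Krt14 rose. The summed intensity of the fibroblast genes at day 14 was 21891 to 49689 in syngeneic, 21685 to 32990 in isotype and 22149 to 41049 in anti-IFNAR1 skin, and that of the macrophage genes 12606 to 28938, 57960 to 64366 and 36368 to 49912. At day 28, 4 of the 10 fibroblast genes fell and 0 rose in isotype skin, and 2 rose in anti-IFNAR1 against isotype skin. Their summed intensity ran from 28668 to 52643 in syngeneic, 16508 to 30498 in isotype and 30395 to 40315 in anti-IFNAR1 skin. All 4 measured adipocyte genes, of 6 listed, fell in isotype and rose in anti-IFNAR1 skin, with the summed intensities given beside the type IV chains, and Lep, the fat cell hormone leptin, lay below 16 in isotype skin. Of 6 skeletal muscle genes 3 fell in isotype and 3 rose in anti-IFNAR1 skin, of 2 Schwann cell genes 1 fell and 0 rose, of 5 smooth muscle and pericyte genes 1 fell and 1 rose, and of 9 hair follicle genes 2 fell and 0 rose. The 6 endothelial genes gave 0 calls in isotype skin and 1 rise in anti-IFNAR1 skin at day 28. Of 6 cartilage genes 5 lay below 16 in every group. The other, Comp, fell against syngeneic skin at day 14, by -2.12 ± 0.39 in isotype and -1.78 ± 0.39 in anti-IFNAR1 skin (adjusted p = 0.0024 and 0.035 by limma). Of the keratinocyte genes 1 of 6 rose in isotype skin at day 28, and 3 of 5 macrophage and 5 of 5 T cell genes rose. The part of these markers in the changes of fibrillar and other chains was not tested either.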

How the data were processed

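Single-colour Affymetrix arrays were hybridised with biotin-labelled cRNA made from total RNA of skin. The table deposited by the authors holds 45101 probe sets in linear intensity units, made by a summarisation and normalisation not given in the sources used here. Symbols came from the platform annotation, updated through the gene table: 34945 probe sets carried 1 symbol, 932 several and 9160 none, and the last 2 kinds and 64 control probe sets were left out. The probe set with the highest mean stood for each of 18193 genes.

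The deposited intensity was turned into log2(intensity + 16) and fitted with limma 3.58.1 in R 4.3.3, with 1 mean per group over the 24 arrays (18 residual and 0.71 prior degrees of freedom), all genes together and p adjusted by Benjamini-Hochberg. The offset of 16 understates changes of dim genes. The script was tested on simulated data with 200 changed genes. The number of arrays limits the precision. No 2 arrays correlated above 0.9948, so none was taken for a duplicate. The labels give no scan date or batch.

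The collagen chains, gene lists and marker lists were chosen with earlier results of these data known. Values on each array are given for chains called in a comparison and for the main chains of types I, III to VII, XII, XIV, XV, XVII and XVIII, and, from the other lists, for up to 4 called genes with the largest change. Genes outside that rule (Col8a1, Col11a1, Col20a1 and Col27a1 among others) were added to account for every chain. Alternatives covered scaling, offset, filter, choice of probe set, arrays fitted, array weights, a replicate block, covariates and left-out arrays. Leaving out arrays of high hair follicle mean was chosen after seeing the data.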

Additional observations from a re-analysis of the deposited data

Results flagged for a closer look

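Of 132 groups of 4 arrays (22 chains in 6 groups), 8 held 1 array far from the others, with a gap above Dixon's critical value for a group of 4. Chance gives this in about 1 in 20 groups. All values are levels in log2(intensity + 16). Col12a1 was highest on isotype day 28 array 3, at 9.18 (others 7.72 to 7.80), and Col18a1 on anti-IFNAR1 day 28 array 2, at 9.54 (others 8.30 to 8.49), an array with a hair follicle mean of 13.80. Col1a2 was highest on isotype day 14 array 4, at 13.88 (others 12.59 to 12.79). Col3a1 was lowest on anti-IFNAR1 day 14 array 3, at 13.22 (others 14.63 to 14.73), the array of its group with the highest Gapdh ratio (4.81). Col4a1 was highest on isotype day 14 array 1, at 14.57 (others 12.83 to 12.91). Col4a4 was lowest on syngeneic day 14 array 1, at 5.40 (others 7.27 to 7.64), and on isotype day 14 array 3, at 6.23 (others 6.70 to 6.73). Col6a1 was highest on syngeneic day 28 array 2, at 12.37 (others 11.94 to 11.97).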

How the results depend on the processing

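In isotype against syngeneic skin at day 14, 2 chains were called, and 5 when genes under a mean of 50 were left out, 5 with the mean of all probe sets, 9 with array weights, 4 without the arrays highest in hair follicle genes, 0 when only the arrays compared were fitted, and 2 to 7 with each array left out. At day 28 the count of 6 became 3 when only the arrays compared were fitted and 14 with array weights (12 lower and 2 higher), and ran from 2 to 7 with each array left out. In anti-IFNAR1 against isotype skin at day 14 the count of 0 became 4 with array weights, 1 with the hair follicle mean as a covariate and 1 without the arrays high in it. At day 28 the count of 3 became 6 among genes with a mean of at least 50, 10 with array weights and 5 with the Gapdh ratio as a covariate, and 1 to 4 with each array left out. Anti-IFNAR1 against syngeneic skin at day 14 gave 1 chain with array weights and 1 with the Gapdh covariate, and the test of a changed difference of anti-IFNAR1 from isotype skin gave 1 with array weights. The single chain between days in isotype skin, Col7a1, became 0 when only the arrays compared were fitted, with either covariate, without either set of doubtful arrays and with the replicate block, and 0 to 1 with each array left out. The other counts of 0 stayed between 0 and 0 with each array left out. Same-numbered arrays of different groups had a median correlation of -0.03 (60 pairs, from -0.61 to 0.57). Arrays of other numbers had a median of 0.01 (180 pairs, from -0.58 to 0.62). Both ranges are wide and the labels do not say what the numbers mean, so pairing is neither shown nor excluded. With the replicate block isotype against syngeneic skin gave 2 and 6 chains, and anti-IFNAR1 against isotype skin 3 at day 28.

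Class medians moved by more than their spread under 3 settings, besides arrays left out in turn. Leaving out genes under a mean of 50 took the other chains in isotype against syngeneic skin from -0.04 to -0.60 at day 14 and from -0.01 to -0.52 at day 28, type IV from -0.63 to -1.01 at day 28, and, in anti-IFNAR1 against isotype skin, type IV from -0.01 to 0.21 at day 14 and from 0.61 to 1.0 at day 28 and the other chains from 0.00 to 0.25. Centring gave 0.43 for type IV and -0.17 for the other chains in the latter. The hair follicle covariate gave -0.02 for fibrillar and -0.36 for type IV chains at day 28. With each array left out, medians of fibrillar chains ran from -0.19 to -0.01, from -0.75 to -0.08, from 0.00 to 0.04 and from -0.03 to 0.50 (isotype at days 14 and 28, then anti-IFNAR1), those of type IV from -0.05 to 0.01, from -0.72 to -0.53, from -0.02 to 0.04 and from 0.42 to 0.79, and those of the others from -0.07 to -0.02, from -0.03 to 0.00, from 0.00 to 0.03 and from -0.01 to 0.01. The fall of Timp2 at day 14 reversed to 0.28 with the mean of all probe sets. The cause of these shifts was not tested. Among 114 named results, 21 values not called changed sign in 54 settings in all. Signal near background limits what can be read from the 16 chains with a mean below 16.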

Other observations

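Col11a1, a fibrillar chain of cartilage and of a few other tissues, was near background on all day 14 arrays and rose above it on single arrays at day 28. It measured 4.74, 4.42, 6.02 and 6.68 in syngeneic, 4.45, 4.36, 4.36 and 4.36 in isotype and 4.36, 8.95, 4.36 and 4.36 in anti-IFNAR1 skin. The highest array, anti-IFNAR1 array 2, was also the one with the highest hair follicle mean (13.80), and syngeneic arrays 3 and 4 followed in both (12.38 and 11.87). Col11a1 is named here after its values were seen, and no test was made of the relation. Of 6 cartilage genes, Acan, Matn1, Matn3, Snorc and Chad lay below 16 in every group, and Comp did not.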
